A study of Homo sapiens with 12 samples.

Results

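The genes described here are 43 hypoxia and glycolysis genes, chosen by symbol from a fixed list of targets of the hypoxia-inducible factors (HIFs) and of glycolytic enzymes. They were found among the 50868 gene identifiers of a read count table of 12 RNA-seq libraries from the human gastric cancer cell lines MKN45 and MKN28. Each of the 4 groups held 3 libraries. MKN45 cells overexpressing ZNF165 from a lentivirus were set against MKN45 cells with a control lentivirus, and MKN28 cells given a lentiviral siRNA against ZNF165 were set against MKN28 cells with a control lentivirus. ZNF165 encodes a zinc finger protein known as a cancer-testis antigen, and the question of the study was how gene expression changed when its level was raised or lowered. The genotype field calls the controls of both lines WT. For replicates 2 and 3 of the knockdown the free-text description reads ZNF166 and ZNF167 where the genotype reads ZNF165, and they were grouped by genotype. The labels name no clone and no oxygen or glucose condition. Separate cultures are not named either, so a p-value here measures the spread of 3 libraries a group, part or all of which may be technical.

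Cells sense oxygen through the HIFs, dimers of an oxygen-labile alpha subunit (HIF1A or EPAS1, also called HIF2A) and ARNT. In oxygen, prolyl hydroxylases such as EGLN1 and EGLN3 mark the alpha subunit for destruction, a step that acts on the protein and is not read by RNA-seq. When oxygen is short the dimer binds the core letters ACGTG or GCGTG and raises transcription of glucose transporters, of nearly every glycolytic enzyme, of the pyruvate dehydrogenase kinases that keep pyruvate out of the mitochondrion, and of factors for vessel growth, pH control and mitophagy. Many gastric and other carcinomas run this programme, or glycolysis alone, also in oxygen.

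Levels are given as CPM, read counts per scaled library size, with TMM factors over all 12 libraries. Fold changes are on the log2 scale with their standard errors, from edgeR's quasi-likelihood test, and an adjusted p is a Benjamini-Hochberg value over all genes tested. A change was called at an adjusted p under 0.05. ZNF165 itself measured 94.3, 84.8 and 93.3 CPM in the overexpression libraries, against 7.70, 9.07 and 15.6 CPM in MKN45 controls (log2 fold change 3.09 ± 0.31, adjusted p = 0.0109). It measured 5.35, 4.57 and 3.01 CPM in the knockdown libraries, against 12, 9.36 and 13.1 CPM in MKN28 controls (−1.47 ± 0.53, adjusted p = 0.0459). Totals ran from 12075813 to 19548445 counts, and 3 counts, the level that a count of 0 allows, equalled 0.129 to 0.410 CPM. Such floors cover counting error only. The knockdown libraries stood apart: 17504 to 20560 genes had a count in them against 21102 to 22579 in their controls, and their CPM hardly followed transcript length across genes (Spearman's rho −0.042 to 0.031, against 0.203 to 0.271). Control replicate 2 of MKN45 differed the same way from its group, with a rho of 0.12 against 0.236 and 0.193. The epithelial markers EPCAM, KRT8, KRT18, KRT19 and CDH1 were present in every library at 56.9 CPM or more. In the knockdown 3 of these 5 were higher and CDH1 was lower, and their part in the results was not tested. In bulk RNA, fewer cells with a transcript and less of it per cell cannot be told apart. Of the 10 fibroblast, leukocyte and endothelial markers only COL1A1 and CD68 passed 2 CPM in any library.

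**Figure D1:**
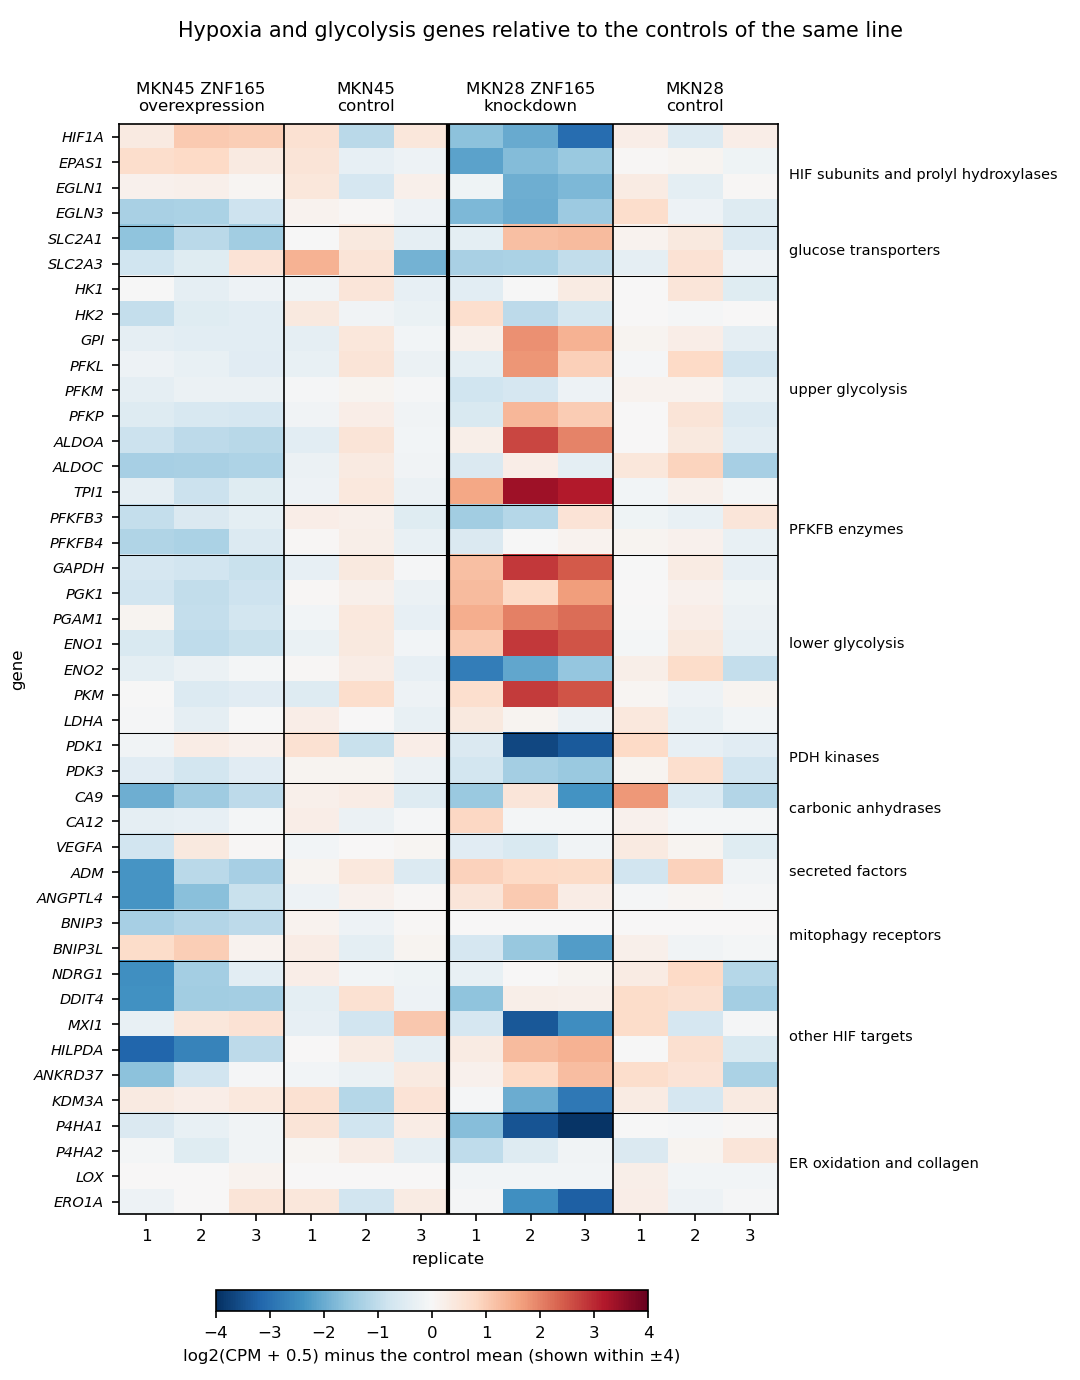
Rows are the 43 genes by role and columns are the 12 libraries, with colour for log2(CPM + 0.5) minus the mean of the 3 controls of the same line, shown within ±4. Knockdown libraries have red blocks in upper and lower glycolysis and blue rows for the HIF subunits, the PDH kinases and P4HA1, while the overexpression libraries are pale blue in most rows.

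The core letters bound by HIF were searched, on both strands, in the 250 bases before each RefSeq transcription start (GRCh38.p14). Of the 43 genes, 38 had at least 1 such window, and 24 of the 38 held ACGTG in one or more. By window, ACGTG was present in 29 of 66 windows of these genes (43.9%), against 18.5% of all 35116 windows. ACGTG or GCGTG was present in 43 of the 66 (65.2%), against 43.2% of all windows. The list was made of HIF targets and glycolytic genes, so a higher share than in all windows may come from that choice. Windows of 1 gene were counted separately (7 each for HK1 and PFKM), and the share was not tested. A match is a description of the letters and says nothing of binding in these cells.

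Upstream stretches of 4 of the genes are printed, picked for the expression results named here, and no result rests on their letters. BNIP3, a mitophagy receptor, had no count in MKN28 and fell with overexpression in MKN45. HK2, hexokinase 2, differed widely in level between the lines, and PGK1 and TPI1 were among the glycolytic genes that rose in the knockdown. The letters, from RefSeq on GRCh38.p14, are read 5′ to 3′ on the gene's strand and leave out any base that lies in a GENCODE 29 exon. Of a gene's windows, the one with the longest stretch free of such exons is shown. Capitals mark ACGTG or GCGTG on either strand, where overlapping matches merge into 1 run. The stretches are chr10:131982014-131982173 (minus strand) for BNIP3, chr2:74834920-74835169 (plus) for HK2, chrX:78103998-78104173 (plus) for PGK1 and chr12:6867855-6868099 (plus) for TPI1.
BNIP3: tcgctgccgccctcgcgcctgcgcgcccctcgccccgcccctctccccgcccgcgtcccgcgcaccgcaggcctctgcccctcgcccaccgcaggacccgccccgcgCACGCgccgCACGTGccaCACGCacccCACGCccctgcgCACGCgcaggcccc
HK2: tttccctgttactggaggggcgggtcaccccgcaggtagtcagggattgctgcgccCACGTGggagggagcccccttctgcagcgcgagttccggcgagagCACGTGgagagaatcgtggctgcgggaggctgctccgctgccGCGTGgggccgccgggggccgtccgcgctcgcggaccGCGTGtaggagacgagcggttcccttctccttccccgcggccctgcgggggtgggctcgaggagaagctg
PGK1: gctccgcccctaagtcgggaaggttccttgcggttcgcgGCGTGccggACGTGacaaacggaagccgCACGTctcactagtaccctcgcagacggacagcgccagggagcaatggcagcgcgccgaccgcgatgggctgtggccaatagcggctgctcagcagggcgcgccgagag
TPI1: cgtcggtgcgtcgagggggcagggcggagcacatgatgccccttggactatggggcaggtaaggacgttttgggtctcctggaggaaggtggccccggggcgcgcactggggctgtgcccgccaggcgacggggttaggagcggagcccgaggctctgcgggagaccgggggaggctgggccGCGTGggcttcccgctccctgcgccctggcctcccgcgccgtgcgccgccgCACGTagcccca
The BNIP3 stretch held 6 matches, all in its 3′ part, and 28 CpG dinucleotides in its 160 bases, and it ends 90 bases before the RefSeq start. The HK2 stretch also held 6 matches, of which 4 were ACGTG on one strand or the other, PGK1 had 3 and TPI1 had 2. HK2 and TPI1 have 2 windows each. Both HK2 windows hold ACGTG, while only 1 of the 2 TPI1 windows, the printed one, holds a match. The printed HK2, PGK1 and TPI1 stretches lie past the first base of the GENCODE gene (74833981, 77910739 and 6867119), so they precede a RefSeq start inside it.

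In the knockdown in MKN28, the share of members called was near or below that of all genes. Of the 39 members tested, 7 rose and 6 fell, and 26 stayed short of the threshold. The shares of all 14939 genes tested that rose and fell were 19.2% and 21.6%, against 17.9% and 15.4% of the members. All 7 that rose are enzymes of glycolysis, in the upper part of the pathway (TPI1 and ALDOA) or the lower part (GAPDH, ENO1, PKM, PGAM1 and PGK1). Those that fell were both HIF alpha subunits, EGLN3, the glucose transporter SLC2A3, the enolase ENO2 and the collagen prolyl hydroxylase P4HA1. The members' median log2 fold change was −0.48, against −0.20 over all genes tested. Scaled by library totals in place of TMM factors, 4 members were higher and 10 lower, against 1310 and 3904 of all 14939 genes. In that edgeR fit PKM (1.205, adjusted p = 0.0535), ALDOA (0.862, adjusted p = 0.148) and PGK1 (0.468, adjusted p = 0.381) lost the call. TPI1, GAPDH, PGAM1 and ENO1 kept it, as did the 6 that fell. The median over all genes was then −0.92. In 6 members all knockdown libraries lay above all controls and in 9 all lay below, which is 15.4% and 23.1% of the 39, against 23.3% and 30.2% of all genes tested.

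Among the oxygen-sensing genes, 3 of 4 fell. HIF1A measured 54.0, 41.1 and 19.7 CPM in the knockdown libraries, against 202, 116 and 202 CPM in controls (−2.24 ± 0.54, adjusted p = 0.00994). EPAS1 measured 38.9, 52.1 and 61.8 CPM, against 179.9, 188 and 155 CPM (−1.83 ± 0.43, adjusted p = 0.00868). Knockdown and control libraries did not overlap for either subunit, and the fitted level was 4.71-fold lower for HIF1A and 3.56-fold lower for EPAS1. EGLN3, a prolyl hydroxylase that is itself a HIF target, measured 1.59, 1.37 and 2.19 CPM in knockdown libraries, against 11.6, 5.84 and 4.67 CPM in controls (−2.16 ± 0.59, adjusted p = 0.0166). EGLN1, the main oxygen sensor of the family, measured 79.9, 22.7 and 25.6 CPM, against 114, 68.6 and 93.6 CPM, and did not pass (−1.15 ± 0.58, adjusted p = 0.134). Only its first knockdown library overlapped the controls. ARNT, the partner of both alpha subunits and no member of the set, fell as well (9.68 ± 5.26 CPM in the knockdown, against 40.6 ± 5.68 CPM in controls, SD, n = 3 each, log2 fold change −2.10 ± 0.55, edgeR adjusted p = 0.0134).

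Of the 2 glucose transporters in the set, 1 passed. SLC2A3, the high-affinity transporter GLUT3, fell to 320.01, 331 and 396 CPM in the knockdown, against 616, 1175 and 678 CPM in controls (−1.28 ± 0.45, adjusted p = 0.041). SLC2A1, the widely used transporter GLUT1, measured 541, 1639 and 1715 CPM in the knockdown, against 790.04, 945 and 488 CPM in controls, and did not pass (0.76 ± 0.53, adjusted p = 0.274). Knockdown replicates 2 and 3 lay above every control for SLC2A1, and replicate 1 lay among them.

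In upper glycolysis, the steps that spend ATP and split the sugar, 2 of 9 members rose and none fell. TPI1, triosephosphate isomerase, measured 1422, 5109.9 and 4437 CPM in knockdown libraries, against 449, 559.8 and 468 CPM in controls. It was 7.11-fold higher (2.83 ± 0.57, adjusted p = 0.00541). ALDOA, the main aldolase, also passed (1.84 ± 0.62, adjusted p = 0.0362), although its first knockdown library, at 1176 CPM, lay below the highest control, at 1312 CPM. HK1, the housekeeping hexokinase, lay between 253 and 494 CPM in all 6 libraries. HK2, the inducible hexokinase, was near its detection floor in MKN28, at 1.16, 0 and 0.137 CPM in knockdown libraries and 0.548, 0.503 and 0.549 CPM in controls (−0.18 ± 0.98, adjusted p = 0.895). The isomerase GPI, the phosphofructokinases PFKL, PFKM and PFKP and the second aldolase ALDOC did not pass, nor did PFKFB3 and PFKFB4, which set the level of the activator of phosphofructokinase.

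Lower glycolysis, from the glyceraldehyde-phosphate step to lactate, held the most calls, 5 of 7 members higher and 1 lower. GAPDH measured 9365, 28746 and 22572 CPM in the knockdown, against 4068, 5102 and 3290.2 CPM in controls (2.23 ± 0.58, adjusted p = 0.0129). ENO1, the common enolase, measured 7964, 27137 and 21706 CPM, against 3620.3, 5035 and 3089.5 CPM (2.22 ± 0.59, adjusted p = 0.0146). PKM, pyruvate kinase M, measured 2362, 10284 and 8492 CPM, against 1556, 1294 and 1595 CPM (2.17 ± 0.60, adjusted p = 0.0173). All 3 were far higher in knockdown replicates 2 and 3 than in replicate 1, and replicate 1 was still above every control. The TMM factors of knockdown replicates 1, 2 and 3 were 0.917, 0.491 and 0.606, and a lower factor raises the CPM. Part of the gap between these replicates therefore comes from the scaling. PGAM1, the mutase, measured 415, 605 and 712 CPM in the knockdown, against 149.7, 179 and 127 CPM in controls (1.87 ± 0.44, adjusted p = 0.00881). PGK1, which makes the first ATP of the pathway, measured 994, 725 and 1319.6 CPM, against 419, 467 and 371 CPM (1.22 ± 0.44, adjusted p = 0.0476). ENO2, the enolase known from neurons and a HIF target, went the other way, with 3.18, 5.37 and 8.07 CPM in knockdown libraries, against 28.6, 40.8 and 12.4 CPM in controls (−2.35 ± 0.61, adjusted p = 0.013). LDHA, which turns pyruvate into lactate, did not differ beyond the spread: 809, 666 and 528 CPM in the knockdown, against 825, 507 and 568 CPM in controls (0.02 ± 0.45, adjusted p = 0.973). Several of these genes, GAPDH, PGAM1 and LDHA among them, have processed pseudogenes, and PGAM4 is nearly identical to PGAM1, so reads can be split between copies. PGAM4 rose with PGAM1 (1.91 ± 0.51, adjusted p = 0.0147).

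Beyond glycolysis, 1 of the 15 members tested passed, or 7 of the 15, all lower, once the trend on length and GC content described below was taken out. Of all 14939 genes, 3228 were lower as fitted and 3109 with the trend taken out. P4HA1, which hydroxylates collagen prolines and needs oxygen to do so, measured 13.4, 3.66 and 2.46 CPM in knockdown libraries, against 44.2, 43 and 46.5 CPM in controls. It was 6.96-fold lower (−2.80 ± 0.69, adjusted p = 0.0108), and its log2 fold change was −3.81 without knockdown replicate 1. PDK1, a kinase that shuts pyruvate dehydrogenase, measured 13.3, 1.14 and 1.504 CPM in the knockdown, against 35.0, 15.8 and 14.5 CPM in controls. All knockdown libraries lay below all controls, but the difference did not pass (−2.04 ± 0.90, adjusted p = 0.0908). The same held for the mitophagy receptor BNIP3L (5.74 to 18.1 CPM, against 26.5 to 33.6 CPM, adjusted p = 0.0641) and for MXI1, an antagonist of MYC (1.49 to 12.569 CPM, against 12.585 to 34.2 CPM, adjusted p = 0.0665). CA9, the cell-surface carbonic anhydrase used as a hypoxia marker, measured 2.24, 10.1 and 0.957 CPM in the knockdown, against 24.6, 4.73 and 2.84 CPM in controls (adjusted p = 0.291). VEGFA, the vessel growth factor, measured 95.9, 85.6 and 118 CPM, against 168, 143 and 94.4 CPM (−0.49 ± 0.43, adjusted p = 0.38). Both overlapped their controls. CA12, ANGPTL4, BNIP3 and LOX had too few counts in MKN28 to be tested.

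**Figure D2:**
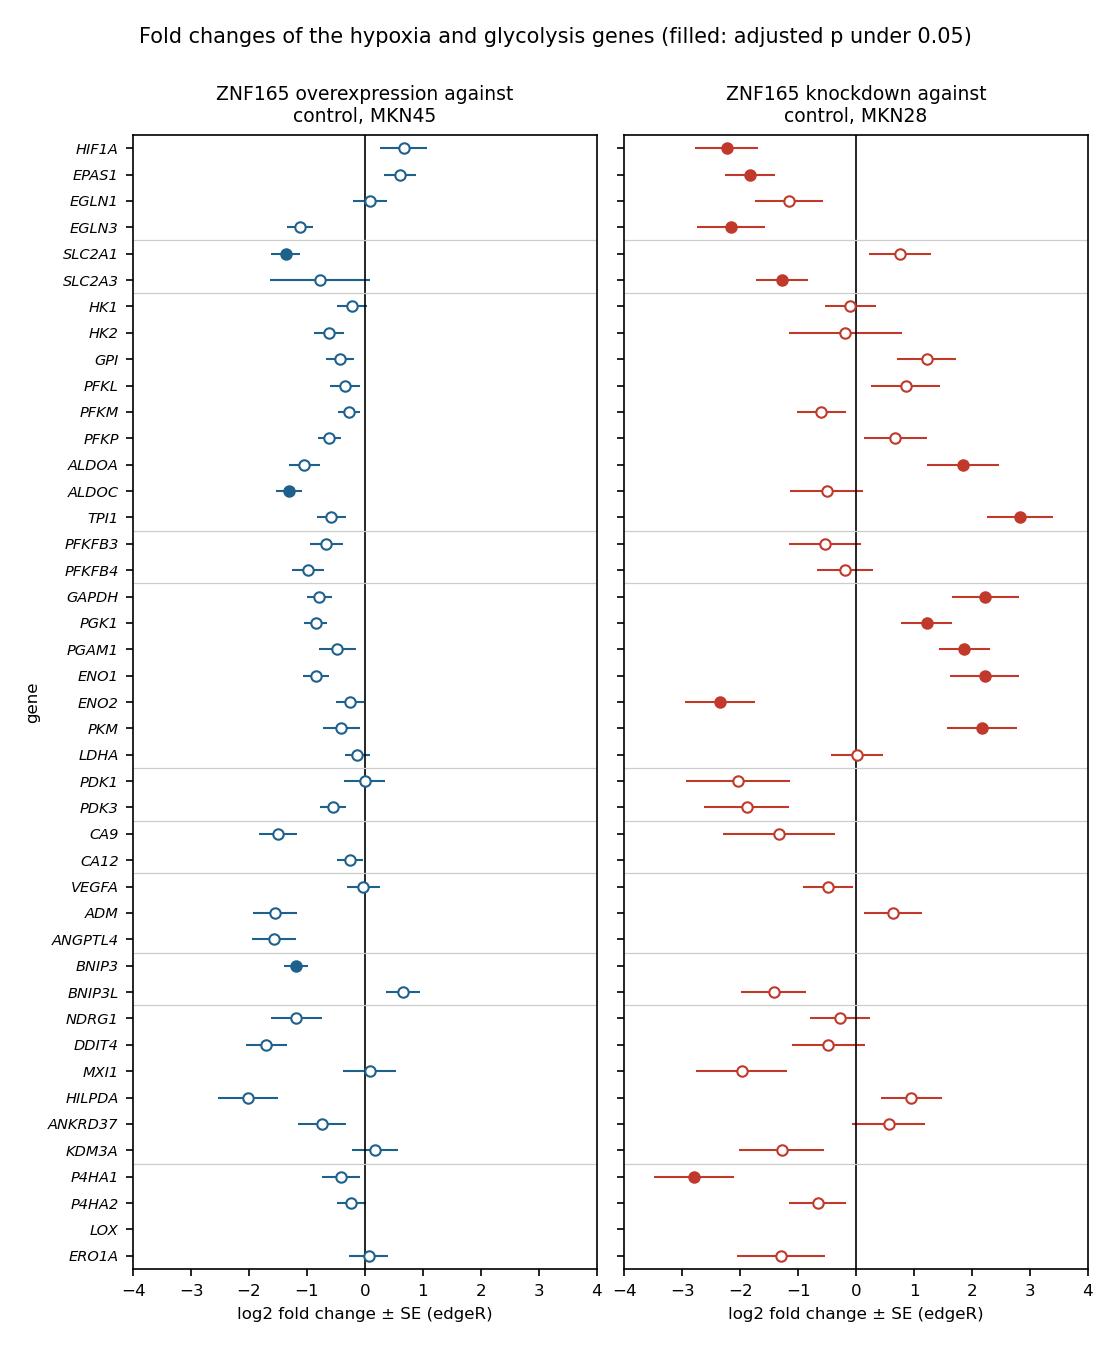
Log2 fold change ± SE from edgeR for each gene, with overexpression against control in MKN45 on the left and knockdown against control in MKN28 on the right, filled where the adjusted p was under 0.05. The filled points are 3 lower genes on the left, and 7 higher and 6 lower genes on the right.

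Transcript length moved with the knockdown values. Over 14864 genes the log2 fold change followed transcript length with a Spearman's rho of −0.496 and GC content with 0.520, and of 4 equal length classes the shortest had a median of 1.02 and the longest one of −1.58. These are descriptions across genes, which are not independent. Members that rose had transcripts of 1279 to 3646 nt (median 1782) and those that fell had 2423 to 5166 nt (median 3352.5). Once the trend on length and GC content was taken out of each library, 2860 of all 14939 genes tested were higher and 3109 lower. In that fit 7 members were higher and 13 lower, and 8 of the 13 calls of the main fit were shared. TPI1 (1.44), ENO1 (1.24), PGAM1 (1.24) and PKM (1.08) passed as higher with smaller values and PGK1 with a larger one (3.18, against 1.22 as fitted). EPAS1, ENO2 and P4HA1 (−1.10, −2.95 and −1.45) passed as lower. GPI became a higher call (0.91, adjusted p = 0.0305), and EGLN1 turned from −1.15 to a higher call (0.99, adjusted p = 0.0118). GAPDH (0.67, adjusted p = 0.0735), ALDOA (0.12, adjusted p = 0.737) and EGLN3 (−1.44, adjusted p = 0.0555) did not, and HIF1A (0.12, adjusted p = 0.776) and SLC2A3 (0.30, adjusted p = 0.617) changed sign. The 10 new lower calls were CA9 (−3.11), VEGFA (−2.10), DDIT4, PFKFB3, ALDOC, MXI1, PFKFB4, BNIP3L, NDRG1 and PFKL (−0.76), so the order of the members by size also changed. With any single library left out, HIF1A, EPAS1, TPI1 and P4HA1 still passed. ENO2 lost the call without control replicate 1, EGLN3 without that library or knockdown replicate 2, GAPDH, PGAM1 and ENO1 without control replicate 1 or 3, and PKM without any one control. PGK1, SLC2A3 and ALDOA lost it without any one control or knockdown replicate 3, and the last 2 also without knockdown replicate 2 (adjusted p up to 0.206). Without control replicate 1 the counts were 1 higher and 3 lower (1019 and 1623 over all genes). Without control replicate 3 they were 1 and 5 (1292 and 1879 over all genes). Without knockdown replicate 1 they were 12 and 13 (4461 and 5917 over all genes), with EGLN1 (−1.89), PDK1 (−3.99) and MXI1 (−3.19) among the lower. Leaving out knockdown replicates 2 and 3 together leaves only replicate 1 in that group. The members' median log2 fold change was then −0.47, against −0.15 over all genes. The part of the libraries' composition in these results was not tested further.

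**Figure D3:**
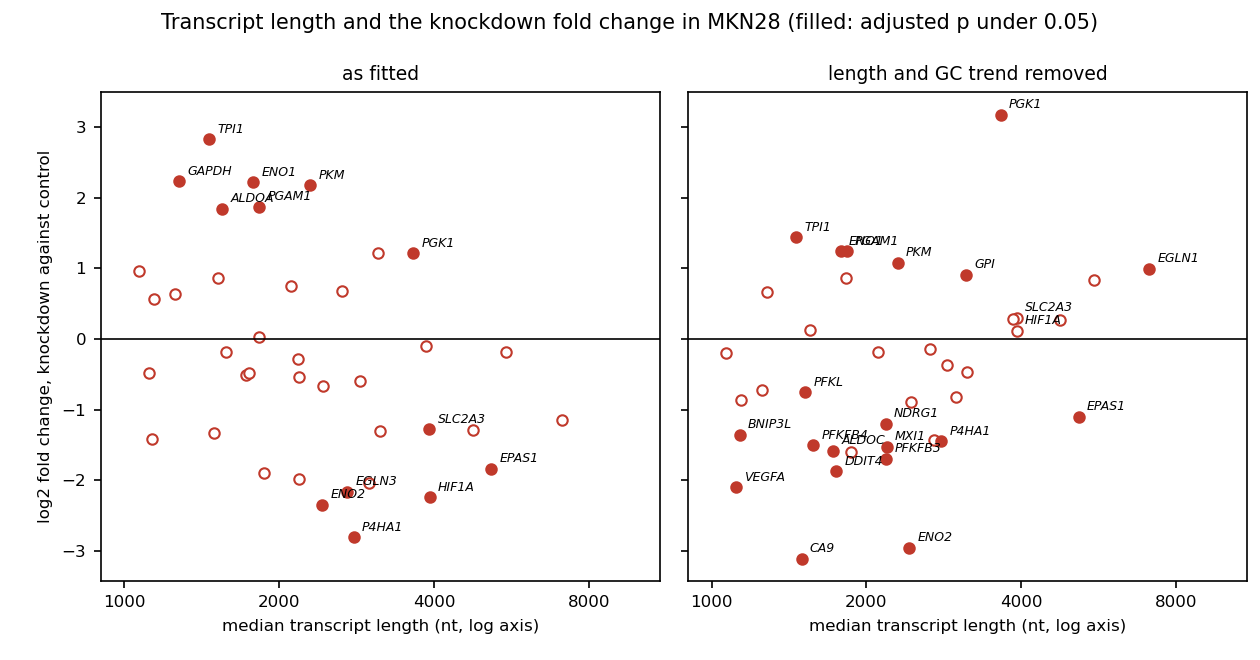
Each point is 1 of the 39 members tested in MKN28, at its median transcript length (nt, log axis) and its knockdown log2 fold change, as fitted on the left and after the trend on length and GC content was taken out on the right, filled where the adjusted p was under 0.05. On the left the filled higher points lie at shorter lengths than the filled lower ones, except for PGK1. On the right HIF1A and SLC2A3 sit near 0 while TPI1, ENO1, PGAM1, PKM and PGK1 stay above it.

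Overexpression in MKN45 gave few calls, all of them lower. Of the 42 members tested by edgeR, 3 fell, 0 rose and 39 did not pass. At an unadjusted p under 0.05, 1 was higher and 20 were lower, and DESeq2 called 0 higher, against 1038 of all 15833 genes. The 3 that fell were SLC2A1, ALDOC and BNIP3. Over all 15833 genes tested 0.196% fell and 0.935% rose, against 7.14% and 0% of the members. The log2 fold change was below 0 in 35 of 42 members (83.3%), with a median of −0.57, against 50.1% and a median of 0.00 over all genes. In 20 members, or 47.6%, all overexpression libraries lay below all controls, against 19.4% of all genes tested. None had all overexpression libraries above all controls, against 18.9% of all genes. Here too the log2 fold change followed transcript length (rho 0.379) and GC content (−0.443) across genes, with a median of −0.33 in the shortest of 4 length classes and 0.37 in the longest. With that trend taken out, the members' median was −0.39 and 36 of 42 were below 0. Members' values are not independent of one another, and these shares carry no test.

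SLC2A1 measured 171, 247 and 198 CPM in overexpression libraries, against 516, 680.5 and 408 CPM in controls. It was 2.58-fold lower (−1.37 ± 0.25, adjusted p = 0.0446). ALDOC, an aldolase that is a HIF target, measured 59.5, 61.8 and 63.4 CPM, against 129, 194 and 137 CPM (−1.31 ± 0.23, adjusted p = 0.0409). BNIP3 measured 78.2, 87.4 and 95.2 CPM, against 219.9, 171 and 206 CPM (−1.18 ± 0.21, adjusted p = 0.0409). In each of the 3 the groups stood apart with no overlap. The calls lie close to the threshold. No member passed without overexpression replicate 1, overexpression replicate 2 or control replicate 3, where all genes gave 1, 1 and 6 calls. Without overexpression replicate 3, 1 passed (12 over all genes), without control replicate 1, 6 did (591) and without control replicate 2, 9 did (1338). In those 6 fits the log2 fold change stayed between −1.54 and −1.16 for SLC2A1, between −1.43 and −1.10 for ALDOC and between −1.28 and −1.12 for BNIP3. DESeq2 called 14 members lower, edgeR without a filter on low counts called 11, and edgeR after taking out the trend on length and GC content called 9. A fit of all 12 libraries called 0 members, and it called 3 of all 17266 genes. Over all genes the lower calls numbered 796 of 15833 with DESeq2, 237 of 26861 without the filter and 391 of 15833 without the trend.

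A further group lay just outside the threshold, each with all overexpression libraries below all controls. EGLN3 measured 61.6, 62.6 and 85.1 CPM in overexpression libraries, against 168, 159 and 132 CPM in controls (−1.12 ± 0.23, adjusted p = 0.0508). CA9 measured 8.43, 12.4 and 16.2 CPM, against 39.6, 42.6 and 23.7 CPM (−1.50 ± 0.33, adjusted p = 0.0547). DDIT4, a brake on mTORC1, had 200.4 to 422 CPM, against 811 to 1629 CPM (−1.70 ± 0.36, adjusted p = 0.0531). HILPDA, a lipid droplet protein, had 13.2 to 58.6 CPM, against 95.01 to 153 CPM, with a log2 fold change of −2.02 ± 0.52 (adjusted p = 0.0723), which was −2.96 and passed without overexpression replicate 3 (adjusted p = 0.0432). The secreted factors ANGPTL4, which inhibits lipoprotein lipase, and ADM, a vasodilator peptide, had 4.15 to 12.2 and 9.68 to 24.4 CPM, against 19.95 to 25.9 and 35.6 to 69.4 CPM (adjusted p = 0.0642 and 0.0668). For every gene of this group overexpression replicate 1 was the lowest of the overexpression libraries.

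The main glycolytic enzymes had lower values that did not pass. GAPDH measured 3307, 3119 and 2873 CPM in overexpression libraries, against 4168, 6905 and 5112 CPM in controls (−0.79 ± 0.22, adjusted p = 0.0819). PGK1 measured 937, 808 and 896 CPM, against 1646, 1822 and 1341 CPM (−0.85 ± 0.20, adjusted p = 0.0594). ENO1, ALDOA and PFKFB4 had adjusted p-values of 0.0771, 0.069 and 0.0825 and did not overlap their controls. HK2 had 99.1, 139 and 146 CPM, against 254, 177 and 162 CPM (−0.62 ± 0.26, adjusted p = 0.165). LDHA had 632, 511 and 653 CPM, against 794, 657 and 537 CPM, within the spread (−0.13 ± 0.22, adjusted p = 0.711). Values of all 9 upper and all 7 lower glycolysis members were below 0 on the log2 scale. Control replicate 2, the library that stands apart in length and GC content, held the highest control value of GAPDH, PGK1, ENO1, ALDOA, ALDOC, SLC2A1, CA9, DDIT4 and HILPDA.

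The HIF subunits, EGLN1, VEGFA and PDK1 did not pass. With single libraries left out, the log2 fold change stayed above 0 for HIF1A (0.303 to 0.937) and EPAS1 (0.445 to 0.894). For EGLN1, VEGFA and PDK1 it crossed 0. HIF1A measured 389, 633 and 604 CPM in overexpression libraries, against 467, 146 and 419 CPM in controls (0.67 ± 0.40, adjusted p = 0.305). EPAS1 measured 49.6, 53.0 and 38.8 CPM, against 43.4, 24.3 and 26.4 CPM (0.60 ± 0.28, adjusted p = 0.2). EGLN1 measured 23.3, 24.0 and 21.7 CPM, against 28.7, 13.0 and 24.0 CPM (adjusted p = 0.873). In all 3 the low control was replicate 2. VEGFA measured 309, 687 and 550.4 CPM, against 496, 533 and 562 CPM (−0.03 ± 0.28, adjusted p = 0.959). PDK1 measured 47.0, 63.1 and 58.2 CPM, against 79.9, 27.5 and 62.9 CPM (adjusted p = 0.996). None of these 5 differed beyond its spread.

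The controls of the 2 lines differed in the levels of hexokinase, prolyl hydroxylase and aldolase isoenzymes and of the transporter SLC2A3. Of 42 members tested, 14 were higher and 5 lower in MKN45 controls than in MKN28 controls, or 33.3% and 11.9%, against 21.4% and 20.4% of all 16088 genes tested. The knockdown and the overexpression were each set against 1 of these control groups, so the comparison of the lines is not independent of them, and line and any batch of that line cannot be told apart. BNIP3 had 10756 counts over the 3 MKN45 controls and 0 counts in all 6 MKN28 libraries. Its ratio to a floor of 3 counts over the MKN28 control group was 4265, and the lower end of its 95% counting interval was 3468. CA12, a membrane carbonic anhydrase, had 5619 counts in MKN45 controls and 2 in MKN28 controls, a ratio of 3342 (95% counting interval 925 to 27605). ANGPTL4 had 1229 counts and 1 count, a ratio of 1462 (262 to 57795). These 3 genes were at or near 0 in MKN28. LOX, a collagen cross-linking oxidase, had no count in MKN45 controls and 3 in MKN28 controls, and no level can be read for it.

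The 2 hexokinases differed in opposite directions. HK2 averaged 198 ± 49.6 CPM in MKN45 controls, against 0.533 ± 0.0261 CPM in MKN28 controls (SD, n = 3 each), a log2 difference of 8.51 ± 0.44 (edgeR adjusted p = 2.01e-07). HK1 averaged 66.2 ± 20.2 CPM in MKN45 controls, against 368 ± 121 CPM in MKN28 controls (−2.45 ± 0.37, adjusted p = 0.000198). SLC2A3 had 6.03, 3.11 and 0.169 CPM in MKN45 controls, against 616, 1175 and 678 CPM in MKN28 controls, 261-fold lower (−8.03 ± 0.90, adjusted p = 2.12e-05), and its log2 difference ran from −8.91 (without MKN45 control replicate 1) to −7.46 with single libraries left out. SLC2A1 did not differ beyond its spread (−0.45 ± 0.34, adjusted p = 0.311). The prolyl hydroxylases also parted: EGLN3 was 20.7-fold higher in MKN45 controls (4.37 ± 0.42, adjusted p = 6.74e-06) and EGLN1 4.28-fold lower (−2.10 ± 0.38, adjusted p = 0.000742). EPAS1 was 5.59-fold lower in MKN45 controls (−2.48 ± 0.33, adjusted p = 8.53e-05), while HIF1A did not pass (0.95 ± 0.42, adjusted p = 0.0875). ALDOC was 14.6-fold higher (3.87 ± 0.53, adjusted p = 9.86e-05).

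Other members that were higher in MKN45 controls were PDK3 (3.56), HILPDA (2.76), VEGFA (1.98), PGK1 (1.94), PFKFB4 (1.89), DDIT4 (1.63), PDK1 (1.36) and P4HA1 (1.05), all log2 differences with an adjusted p of 8.89e-05 to 0.0325. NDRG1, a stress-induced protein, was lower (−1.09, adjusted p = 0.0489), and its groups overlapped. Leaving out single libraries, PDK1 passed only without MKN28 control replicate 1 or MKN45 control replicate 2, NDRG1 only without MKN28 control replicate 3 and P4HA1 only without MKN45 control replicate 2, with adjusted p-values up to 0.111, 0.204 and 0.135 in the other fits. DDIT4 lost the call without MKN45 control replicate 2 (adjusted p = 0.0727), and CA9 passed without MKN28 control replicate 1 (3.23). The common enzymes did not pass: GAPDH, ENO1, PKM, LDHA, PGAM1 and TPI1 had log2 differences between −0.06 and 0.44. Same-numbered controls of the lines deviated together, but so did MKN45 control 1 and MKN28 control 3, so the number is not shown to pair them. An edgeR fit with that number as a block had 20 members higher and 7 lower, against 4357 and 4582 of all 16088 genes. CA9 (adjusted p = 0.00493) and HIF1A (adjusted p = 0.00667) were among the higher.

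**Figure D4:**
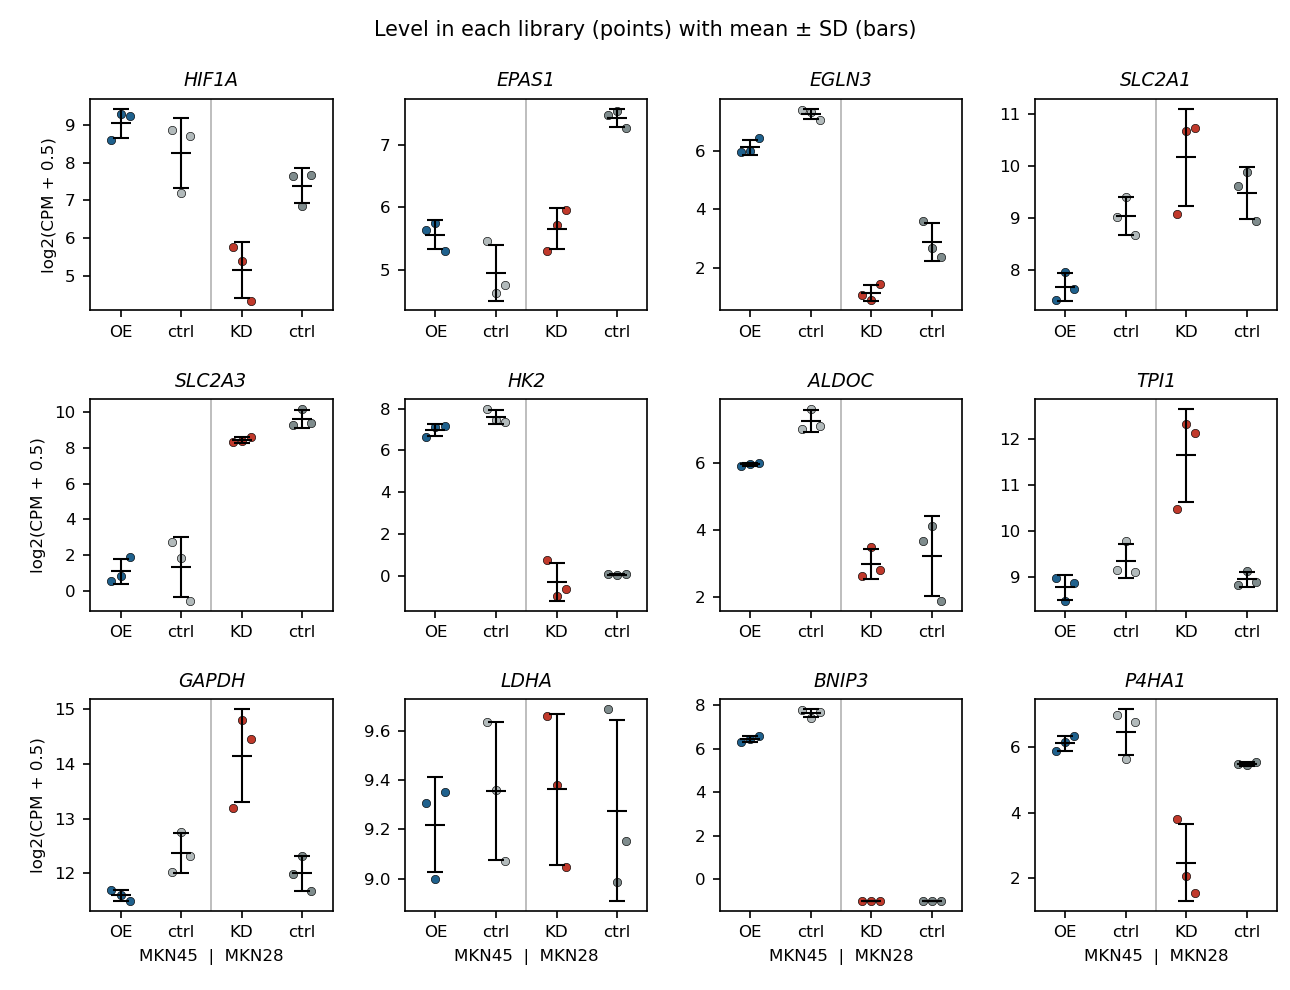
Points are the libraries of each group on a log2(CPM + 0.5) axis, with bars for the mean ± SD (n = 3), for 12 genes. OE is ZNF165 overexpression, KD is ZNF165 knockdown and ctrl is the control lentivirus of the line named under the axis. BNIP3 and HK2 sit at the bottom of the scale in MKN28, and SLC2A3 does in MKN45.

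Levels of isoenzymes were set side by side after division by transcript length (CPM per kb). Knockdown CPM hardly followed length (rho −0.042 to 0.031, against 0.203 to 0.271 in MKN28 controls). Shares of genes of unlike length are therefore not on the same footing in these 2 groups, and they were not adjusted for that trend. HK2 made up 60.9 ± 7.53% of HK1 plus HK2 in overexpression libraries and 67.4 ± 8.72% in MKN45 controls (SD, n = 3 each). In MKN28 the share was 0.109 ± 0.170% in knockdown libraries and 0.1095 ± 0.04% in controls. EGLN3 made up 88.6 ± 2.21% of EGLN1 plus EGLN3 in overexpression libraries and 94.8 ± 1.91% in MKN45 controls, against 12.3 ± 6.78% in the knockdown and 16.9 ± 4.85% in MKN28 controls. SLC2A3 made up 14.99 ± 7.94% of both transporters in the knockdown and 37.5 ± 6.99% in MKN28 controls, with the highest knockdown library at 24.1% and the lowest control at 29.5%. The median transcripts are 3915 nt for SLC2A3 and 2105.5 nt for SLC2A1. With the trend on length and GC content taken out, the knockdown log2 fold changes were 0.30 for SLC2A3 and −0.18 for SLC2A1, and neither passed. In MKN45 the SLC2A3 share was at most 0.854% in any library. EPAS1 made up 51.6 ± 17.7% of both alpha subunits in the knockdown and 44.1 ± 9.79% in MKN28 controls, a difference within the spread, and 6.48 ± 2.13% in overexpression libraries and 7.46 ± 3.43% in MKN45 controls. ENO2 made up 0.0237 ± 0.00802% of both enolases in the knockdown, against 0.488 ± 0.168% in MKN28 controls, without overlap. With the trend taken out, the knockdown log2 fold changes were −2.95 for ENO2 and 1.24 for ENO1. Shares were not tested. On the same scale GAPDH and ENO1 held the first and second rank of the 43 genes in each of the 4 groups, with GAPDH at 2424 CPM per kb in overexpression libraries, 4218 in MKN45 controls, 15820 in knockdown libraries and 3247 in MKN28 controls.

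**Figure D5:**
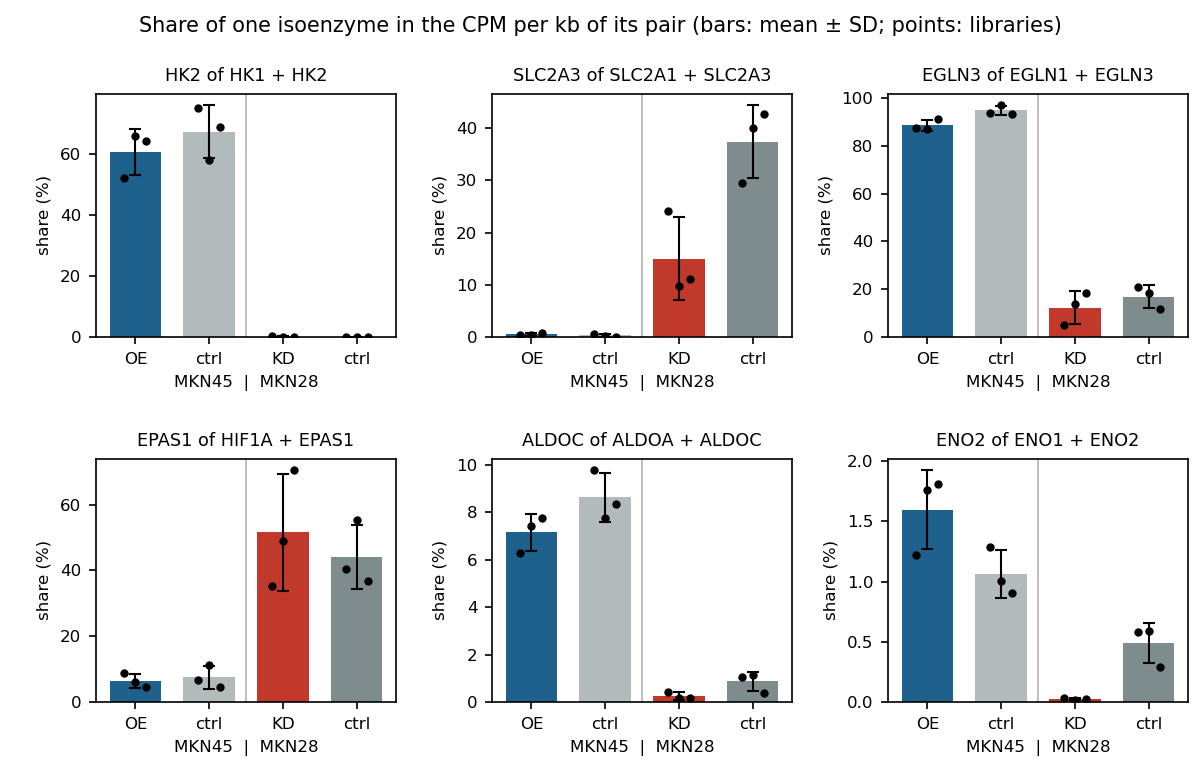
Bars are the mean share (%) ± SD of 1 gene in the summed CPM per kb of its pair, and points are libraries (n = 3). OE is ZNF165 overexpression, KD is ZNF165 knockdown and ctrl is the control lentivirus of the line named under the axis. HK2 and EGLN3 carry most of their pair in MKN45 and little in MKN28, and SLC2A3 carries less in knockdown libraries than in MKN28 controls. The shares are not adjusted for the trend on length and GC content.

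The overexpression effect in MKN45 was set against the effect of control against knockdown in MKN28, and the difference was tested in a fit of all 12 libraries. ZNF165 itself changed by unequal amounts in the 2 arms (3.09 and −1.47 on the log2 scale), so a difference does not by itself show that the lines respond differently. Of 42 members, 1 was higher and 4 were lower, or 2.38% and 9.52%, against 8.09% and 9.38% of all 17266 genes tested. Scaled by library totals alone, 1 was higher and 11 were lower, against 616 and 2505 of all genes. TPI1 was the higher one, and EGLN3, P4HA1, ENO2 and PDK3 were the lower ones. EGLN3, for example, was 1.12 below its controls with overexpression and 2.16 below them in the knockdown, both on the log2 scale, so its 2 effects have the same sign although ZNF165 moved in opposite directions. The remaining 37 did not pass, SLC2A1, HIF1A and GAPDH among them (adjusted p = 0.533, 0.118 and 0.084).

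A list of 91 other genes of the pathway was read alongside. In the knockdown 6 of the 65 tested (9.23%) were higher and 16 (24.6%) lower, against 19.2% and 21.6% of all genes. The counts were 1 and 2 without control replicate 1 (1019 and 1623 over all genes), and 1 and 5 without control replicate 3 (1292 and 1879). They were 4 and 5 without knockdown replicate 2 (1977 and 2273), and 4 and 6 without knockdown replicate 3 (2104 and 2278). They were 4 and 9 without control replicate 2 (2388 and 2860), and 14 and 31 without knockdown replicate 1 (4461 and 5917). The calls were led by HMOX1 (2.67, heme oxygenase) and EGLN2 (2.20, another prolyl hydroxylase) among the higher and by SLC2A12 (−3.85, a glucose transporter), IGFBP3 (−3.56, an IGF-binding protein), ERRFI1 (−2.79, an inhibitor of EGFR), RORA (−2.69, a nuclear receptor) and TFRC (−2.56, the transferrin receptor) among the lower. With overexpression 1 of 78 was higher, the vasoconstrictor gene EDN1 (29.4 ± 6.37 CPM, against 6.23 ± 1.49 CPM in controls, log2 fold change 2.25 ± 0.28, edgeR adjusted p = 0.0202). That is 1.28%, against 0.935% of all genes, and the call was lost without any one overexpression library, without control replicate 3, with the replicate block and in the fit of all 12 libraries. By the same edgeR fit 0 were lower. At an unadjusted p under 0.05 in that fit 5 were higher and 13 lower, and all genes were not counted at that threshold. DESeq2 called 5 higher and 6 lower. Over all 15833 genes DESeq2 called 1038 higher and 796 lower. Between the control lines 24 of 75 (32%) were higher and 14 (18.7%) lower in MKN45, against 21.4% and 20.4% of all genes. LDHB, the lactate dehydrogenase subunit of oxidative tissues, averaged 569 ± 39.1 CPM in MKN45 controls, against 0.172 ± 0.0492 CPM in MKN28 controls, and the lactate exporter SLC16A1 averaged 58.1 ± 26.5 CPM, against 292 ± 57.6 CPM (−2.35 ± 0.39, adjusted p = 0.000381). LDHA, by contrast, was at 663 ± 128 CPM in MKN45 controls and 633 ± 169 CPM in MKN28 controls.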

How the data were processed

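The table held raw read counts per gene for 12 libraries made from total RNA. The counts were made by the authors and used as deposited, as whole numbers. HISAT2 and StringTie are named without versions in the submitters' processing notes; how reads were counted, whether by strand, and on which genome build is not given in the sources used here, so overlapping and antisense genes may share reads. Ensembl identifiers were matched to symbols, lengths and GC content in GENCODE 29 (GRCh38): 49659 of 50868 had a symbol and 50076 a length. The 3 libraries of a group differed by more than sampling noise (chi-square per degree of freedom 19.5 to 417), and each was counted once.

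Each pair of groups was fitted over all genes with edgeR 4.0.16 in R 4.3.3 (filterByExpr with a minimum count of 10 and a minimum total of 15, TMM factors, quasi-likelihood test, threshold 0.05 on the p adjusted by Benjamini-Hochberg). The difference between the lines came from 1 fit of all 12 libraries. CPM per kb used the median length of a gene's GENCODE basic transcripts. Alternatives were library totals alone, upper-quartile factors, DESeq2 1.42.0, no filter, the replicate number as a block, a smooth trend on length and GC content per library (mgcv 1.9.3) used as an offset, both together, a fit of all 12 libraries, each library left out, and knockdown replicates 2 and 3 left out together. The scripts were tested on simulated counts. Replicate numbers come from the sample titles. Same-numbered controls of the 2 lines deviated together from their group means (r = 0.319, 0.560 and 0.324 across genes). MKN45 control 1 and MKN28 control 3 correlated as well (0.326), and MKN45 control 3 and MKN28 control 1 at 0.184. Control replicate 2 of each line also had the highest rho of CPM with GC content in its group (0.159 in MKN45 and 0.0962 in MKN28). The numbers are thus not shown to pair libraries, and the main fits have no block.

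The 43 members and the list of 91 other genes were chosen with earlier results of these data known. Values per library are given for 11 fixed members and for up to 6 members per direction with the largest change past the threshold without overlap of the groups, and of the other list up to 5 genes per direction. Further members, the genes whose upstream sequence is printed, and ARNT, PGAM4, SLC16A1 and LDHB were picked after their values were seen.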

Additional observations from a re-analysis of the deposited data

Results flagged for a closer look

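For 5 genes the fitted effect of more against less ZNF165 differed between the lines, by edgeR's test of the difference itself in a fit of all 12 libraries. The difference is the log2 effect of overexpression against control in MKN45 minus the log2 effect of control against knockdown in MKN28. It was −3.238 for EGLN3 (adjusted p = 0.00525), −3.186 for P4HA1 (adjusted p = 0.0144), −2.578 for ENO2 (adjusted p = 0.0177), −2.423 for PDK3 (adjusted p = 0.0325) and 2.301 for TPI1 (adjusted p = 0.0212). For the prolyl hydroxylase EGLN3 both arms lay below their controls, at 61.6, 62.6 and 85.1 CPM in MKN45 overexpression, against 168, 159 and 132 CPM, and at 1.59, 1.37 and 2.19 CPM in MKN28 knockdown, against 11.6, 5.84 and 4.67 CPM. PDK3, a pyruvate dehydrogenase kinase, measured 15.5, 12.6 and 15.4 CPM in MKN45 overexpression, against 23.2, 23.0 and 18.3 CPM in MKN45 controls. In MKN28 it measured 0.795, 0.343 and 0.274 CPM in knockdown libraries, against 1.83, 2.92 and 0.778 CPM in controls. These knockdown values rest on 11, 3 and 2 counts, at or near the floor of 3 counts. With each of the 12 libraries left out in turn, EGLN3 and P4HA1 passed in 12 of 12 fits, ENO2 in 11 (not without overexpression replicate 1), TPI1 in 6 and PDK3 in 3. Without knockdown replicate 1 the difference was −4.30 for P4HA1 and −3.12 for PDK3. ZNF165 itself changed by unequal amounts in the 2 arms (3.09 and −1.47 on the log2 scale), so these differences do not by themselves show a response particular to a line.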

How the results depend on the processing

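In the knockdown, library totals alone gave 4 members higher and 10 lower and moved the median over all genes to −0.92. The block gave 12 lower, taking out the length and GC trend 13 and both together 14. Leaving out knockdown replicates 2 and 3 together gave a members' median of −0.47, against −0.15 over all genes. TPI1, P4HA1, EPAS1, ENO2 and PGAM1 passed in 9 of 9 settings other than single libraries left out. Signs turned for SLC2A1 (−0.161 with totals, −0.180 without the trend, −0.203 with the block as well, −0.426 without knockdown replicates 2 and 3), LDHA (−0.724 with totals, −0.072 with upper-quartile factors, −0.055 without a filter), HK2 (0.828 and 0.239 without the trend, 1.123 without those 2 replicates), HIF1A (0.119 and 0.054), EGLN1 (0.995 and 0.987) and SLC2A3 (0.30 and 0.270), each pair being the trend removed without and with the block. Over all genes in the knockdown, totals gave 1310 higher and 3904 lower. The block gave 4084 lower genes, taking out the trend 3109 and both together 2928. In the overexpression, lower members numbered 1 with totals, 14 with DESeq2 and 11 without a filter. They numbered 0 with the block, 9 without the trend and 0 in the fit of all 12 libraries. Over all genes the lower calls, in the same order, numbered 17, 796, 237, 3, 391 and 0. Totals moved the median over all genes to 0.10. Signs turned for PDK1 (0.067 with totals, 0.108 with the block), VEGFA (0.079 with totals, 0.406 and 0.355 without the trend) and EGLN1 (−0.431 and −0.431). Between the control lines 8 were lower without the trend, and 22 higher and 8 lower with the block as well. Over all genes 4078 were lower without the trend, and 4659 higher and 4256 lower with the block as well. LDHA was −0.070 with totals, and the median over all genes was −0.16 with totals and 0.11 with upper-quartile factors. For the difference, 11 were lower with totals, 5 higher with DESeq2, and 2 higher and 9 lower without a filter. Without the trend 2 were higher and 11 lower, and 14 were lower with the block as well. Over all genes 2505 were lower with totals, 2398 higher with DESeq2, and 1417 higher and 2361 lower without a filter. Without the trend 1862 of all genes were higher and 2331 lower, and 1915 were lower with the block as well. Causes were not tested.

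With single libraries left out, counts in the knockdown ran from 1 to 12 higher and 3 to 13 lower. In the overexpression they ran from 0 to 9 lower, and for the difference from 0 to 7 higher and 2 to 12 lower. Over all genes the knockdown ran from 1019 to 4461 higher and 1623 to 5917 lower, and the overexpression from 0 to 506 lower. The difference ran from 472 to 3215 higher and 680 to 4995 lower over all genes. Log2 fold changes that crossed 0 were, in the knockdown, LDHA (−0.146 to 0.241), HK2 (−2.89 to 0.36) and CA9 (−2.73 to 0.17), in the overexpression PDK1 (−0.335 to 0.309), VEGFA (−0.303 to 0.221), LDHA (−0.267 to 0.002) and EGLN1 (−0.183 to 0.314), and between lines LDHA (−0.055 to 0.315). Where a group was left with 1 library, that library is assumed to vary like the others.

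Pairing by replicate number was not shown in any comparison. Same-numbered controls of the lines correlated at 0.319, 0.560 and 0.324, but MKN45 control 1 and MKN28 control 3 did so at 0.326. Between the control lines the block added 8 calls to the 19 and lost none, with 4357 higher and 4582 lower over all genes. Same-numbered libraries correlated at 0.313, 0.472 and −0.401 in the knockdown and at −0.0805, −0.0612 and 0.103 in the overexpression. In these 2 comparisons the block gave 12 and 0 lower members, against 4084 and 3 lower over all genes. At this depth BNIP3, CA12, ANGPTL4 and LOX could not be compared in MKN28.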
